A study of Mus musculus with 8 samples.

Results

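The genes described here are 10 inflammasome and gasdermin genes of the mouse colon: the sensors Nlrp3, Nlrp6, Nlrc4 and Aim2, the adaptor Pycard, the caspases Casp1 and Casp4, and the pore-forming proteins Gsdmd, Gsdmc2 and Gsdmc4. They were chosen by symbol, with earlier results of these data known. All 10 were found among the 17353 genes of the count table and of the matching FPKM table. FPKM is a level per length of transcript and depth of library. All 10 also passed the filter on low counts that left 13381 genes for testing. The mRNA came from colon mucosa taken on day 7 from C57BL/6J males of wild-type genotype, with 2 animals in each of 4 groups. The Kuiyangling animals drank 3% dextran sulfate sodium (DSS), which damages the lining of the colon and causes colitis, and were given an enema of Kuiyangling, a Chinese herbal preparation, at 10 g/kg. The mesalazine animals drank the same DSS and were given an enema of mesalazine (50 mg/kg), an anti-inflammatory drug prescribed for ulcerative colitis. The DSS model animals drank DSS and were given a saline enema, and the control animals had the saline enema without DSS. Every enema had a volume of 0.2 ml, so all groups share the enema itself, and no group was given a treatment without DSS.

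Inflammasomes are protein complexes that form in the cytosol when a sensor meets a microbial product or a sign of cell damage. Most sensors recruit the adaptor ASC, made from Pycard, which gathers caspase-1; caspase-1 then cuts the precursors of IL-1β and IL-18 and cuts gasdermin D, whose freed end opens pores in the cell membrane. Caspase-4, long called caspase-11 in mice, binds bacterial lipopolysaccharide directly and also cuts gasdermin D. In the gut these proteins are made by epithelial cells as well as by macrophages and neutrophils, and the gasdermin C genes of mice are known as intestinal epithelial genes that respond to the cytokines of type 2 immunity.

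The libraries held 15560946 to 17843715 counts and 15217 to 15689 genes with a count above 0. The epithelial marker genes were all detected in every library, with a summed level of 20057 to 30402 CPM (counts scaled to library size), against 12.96 to 72.3 CPM for smooth muscle, so the libraries carry the markers of the labelled mucosa. One mesalazine library (replicate 1) and one control library (replicate 2) stood apart, with a mean Spearman correlation with the other libraries of 0.940 and 0.945, where the other 6 libraries had 0.963 to 0.974. Ribosomal protein genes took 12.7% of the counts of mesalazine replicate 1 and 3.35% to 6.68% of those of the other libraries. B-cell markers summed to 49.6 CPM in control replicate 2 and to 0.842 CPM in control replicate 1. For several of the 10 genes the values below are therefore also given without this pair of libraries. Levels also varied with transcript length. For each library, deviations from the gene means were correlated with length over the genes tested. The Spearman correlation was -0.0195 and 0.385 in Kuiyangling and -0.534 and 0.284 in mesalazine libraries. It was -0.0959 and -0.433 in DSS model and 0.444 and 0.267 in control libraries, so its sign differed between DSS model and control. A correction for length was among the alternatives.

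No gene of the 10 passed the test in any of the 6 comparisons between groups (edgeR quasi-likelihood test, Benjamini-Hochberg adjusted p under 0.05 over all genes tested). Of all genes tested, 0.247% passed in DSS model against control, 0% in Kuiyangling against DSS model, 0% in mesalazine against DSS model, 0% in Kuiyangling against mesalazine, 0.239% in Kuiyangling against control and 0.673% in mesalazine against control. DESeq2 and limma on log2 FPKM also called 0 of the 10 in each comparison. At an unadjusted p under 0.05, edgeR counted 2 of the 10 in DSS model against control, where 14.8% of all genes were under it, 2 in Kuiyangling against DSS model (3.56%) and 3 in mesalazine against DSS model (5.49%). It counted 0 in Kuiyangling against mesalazine (1.90%), 3 in Kuiyangling against control (10.3%) and 3 in mesalazine against control (20.0%). Nlrp3 was among the genes counted in every comparison with the DSS model. It passed the filter on low counts only through the DSS model libraries, where it was highest, so those counts are not free of that choice. Gsdmc2 and Gsdmc4, which share sequence, were both counted in mesalazine against DSS model and in each treatment against control. One library could move the estimates. Without mesalazine replicate 2, that group is left with the library that stood apart. The log2 differences of mesalazine against control were then -0.84 for Aim2, 1.36 for Pycard, -4.53 for Gsdmc2 and -5.84 for Gsdmc4. With all libraries they were -0.24, 0.93, -2.15 and -2.57. The estimates that were largest for their spread belonged to Nlrp3, Pycard, Gsdmc2 and Gsdmc4, and the values that follow are measurements with that limit.

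Per length of transcript the 10 genes spanned the whole range of the colon's expressed genes. By mean FPKM over the 8 libraries, Pycard (165 FPKM), Casp1 (152 FPKM), Gsdmd (116 FPKM), Gsdmc4 (114 FPKM) and Nlrp6 (78.4 FPKM) lay between the 92.5th and the 96.4th percentile of the genes tested. Gsdmc2 at 51.8 FPKM and Casp4 at 38.3 FPKM followed, then Nlrc4 at 11.9 FPKM and Aim2 at 9.23 FPKM. Nlrp3 was at 0.0822 FPKM, at the 1.5th percentile. The mucosa thus held abundant mRNA of the adaptor, of caspase-1 and of gasdermin D in every group, while mRNA of the best-known sensor was close to the limit of counting.

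**Figure D1:**
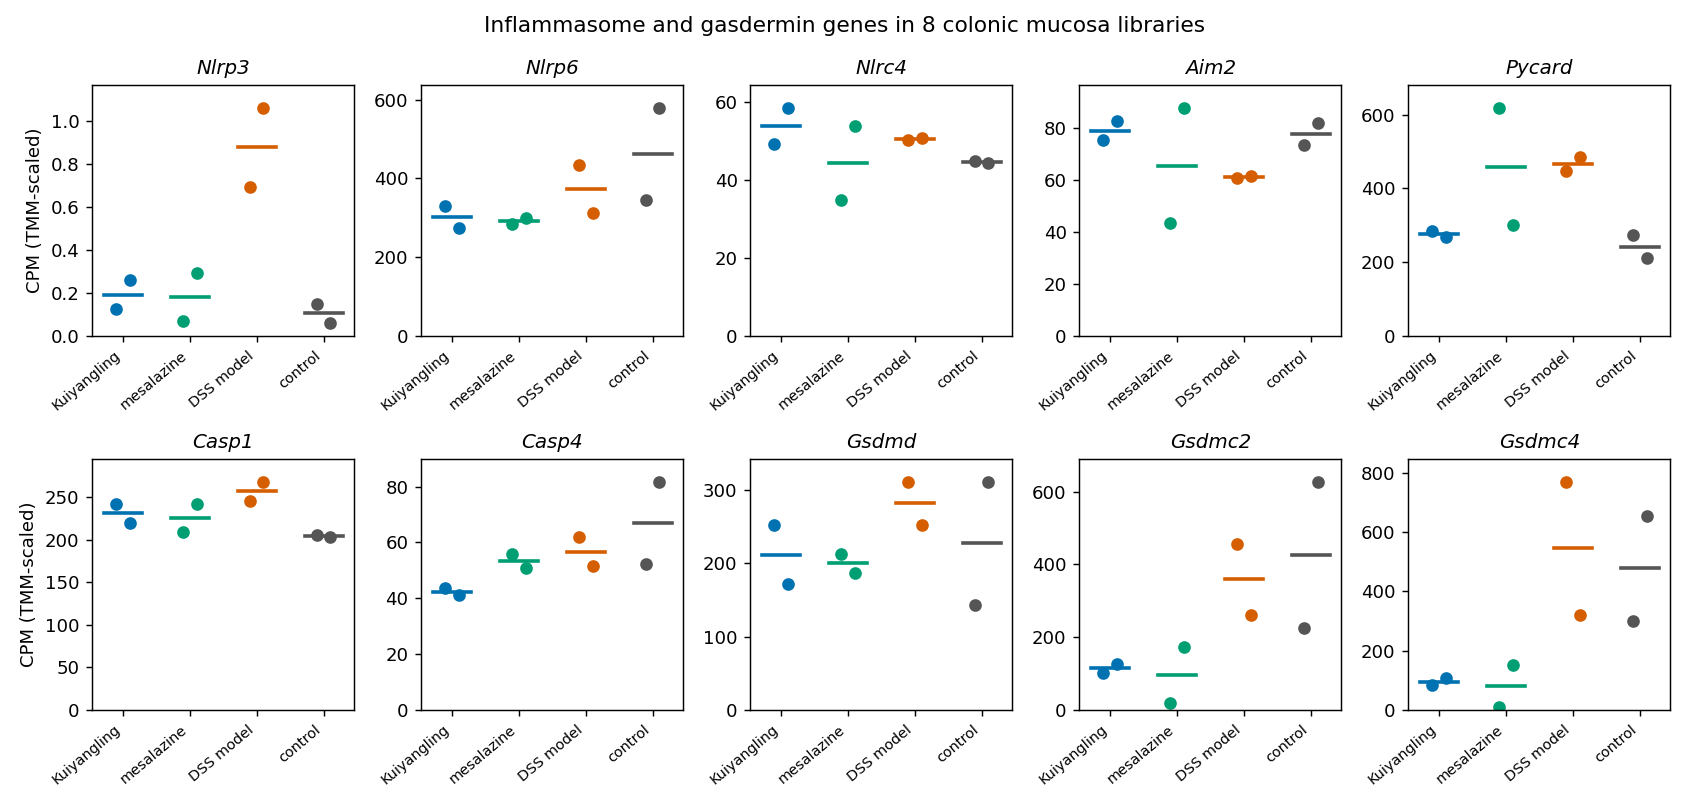
Level of each of the 10 genes in every library, in CPM on a linear axis that starts at 0 in each panel, with groups from left to right as Kuiyangling, mesalazine, DSS model and control; points are libraries and bars are group means (n = 2). Both DSS model libraries lie above the rest for Nlrp3, which stays at or below 1.06 CPM, and the 4 treated libraries lie below the 4 untreated ones for Gsdmc2 and Gsdmc4.

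Among the sensors, Nlrp3, which responds to potassium loss and membrane damage, was counted 2 and 5 times in the Kuiyangling libraries, 1 and 5 times in the mesalazine libraries, 11 and 16 times in the DSS model libraries, and 3 and 1 times in the control libraries. Both DSS model libraries were above the other 6, and those 6 lay at or near the level of 3 counts, which is 0.149 to 0.212 CPM in these libraries. Pooled over each group and scaled for depth, the DSS model had 7.93 times the Nlrp3 of the controls, with a counting interval of 2.76 to 31.2 (95%, counting error only). The Kuiyangling group had 0.227 of the DSS model level (0.0834 to 0.534) and the mesalazine group 0.220 (0.0744 to 0.545). The fitted log2 differences were 2.93 ± 0.87 (SE) for DSS model against control, -2.12 ± 0.81 for Kuiyangling against DSS model and -2.17 ± 0.83 for mesalazine against DSS model, with adjusted p of 0.194, 0.996 and 0.777. Both treatment comparisons use the same DSS model libraries, so their values are not independent of each other. Nlrp3 also passed the filter on low counts only through the DSS model libraries, where it was highest. Its differences from that group are therefore not free of that choice. Without the pair of libraries that stood apart, the Nlrp3 differences were 2.48, -2.11 and -1.55. For mesalazine against DSS model the Nlrp3 difference was -3.50 without mesalazine replicate 2 and -1.57 without mesalazine replicate 1. On log2(FPKM + 1), a scale whose added 1 is above every level of this gene and so shrinks its differences, limma gave 0.23, -0.20 and -0.21, and on log2(FPKM + 0.1) it gave 1.24, -1.02 and -1.10. In a bulk sample, fewer cells of a type and less RNA per cell cannot be told apart.

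Nlrp3 is known as a gene of myeloid cells, and myeloid markers were measured beside it. Of the 10 neutrophil markers Ly6g stood out, at 843 CPM in mesalazine replicate 1 and 10.5 to 200.4 CPM in the other libraries. The other 9 summed to 9.66 and 7.06 CPM in Kuiyangling libraries, 27.6 and 10.1 CPM in mesalazine libraries, 29.8 and 55.4 CPM in DSS model libraries and 0.495 and 0.678 CPM in control libraries. In the controls, 5 and 6 of the 10 neutrophil markers were at 0, among them Cxcr2, S100a9, Retnlg and Mmp8 in both. The 10 monocyte and macrophage markers were all detected in every library and summed to 163 and 166 CPM in Kuiyangling libraries, 187 and 166 CPM in mesalazine libraries, 191 and 186 CPM in DSS model libraries and 157 and 182 CPM in control libraries. Cd14 and Mertk together made up most of that sum in every library and moved apart, so the sum does not describe the other markers of the list. Cd14 was at 34.8 and 40.6 CPM in Kuiyangling, 67.2 and 36.2 CPM in mesalazine, 94.3 and 69.2 CPM in DSS model and 41.1 and 51.9 CPM in control libraries. Mertk was at 66.5 and 70.0 CPM in Kuiyangling, 40.9 and 86.3 CPM in mesalazine, 48.2 and 44.8 CPM in DSS model and 82.5 and 81.1 CPM in control libraries. Both DSS model libraries were thus above the controls for Cd14 and below them for Mertk. The part of these cells in the Nlrp3 counts was not tested.

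The promoter of Nlrp3 is shown because this sensor had the largest fitted difference among the 10 genes in DSS model against control. The first of the 2 windows that RefSeq gives for it (GRCm38.p6, chr11:59542436-59542735, + strand) runs from 250 bases before the transcript start to 50 after it, with motif matches in capitals.
Nlrp3: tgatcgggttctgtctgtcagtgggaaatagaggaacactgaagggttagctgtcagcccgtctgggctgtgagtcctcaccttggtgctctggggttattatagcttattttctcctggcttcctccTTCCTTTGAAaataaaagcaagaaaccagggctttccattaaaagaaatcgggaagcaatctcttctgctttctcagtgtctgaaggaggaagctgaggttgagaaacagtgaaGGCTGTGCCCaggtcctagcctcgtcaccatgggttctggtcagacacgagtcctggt
The first match is to a STAT6 pattern (TTC and GAA with any 4 bases between), 122 bases before the start. The second, 8 bases before the start, is to a kappa-B pattern (GGG and CC with any 5 bases between) on the opposite strand. The second window (chr11:59541319-59541618, + strand) holds a kappa-B match 186 bases before its start and no STAT6 match. Both strands were searched in 32851 promoter windows, of which 6.95% hold the STAT6 pattern and 50.8% the kappa-B pattern. Of the 10 genes, 7 have a window in the RefSeq table; the kappa-B pattern was found for Nlrp3, Casp1 and Casp4 and the STAT6 pattern for Nlrp3, while an interferon-response core (GAAA and GAAA with any 2 bases between), which 3.44% of all windows hold, was found in none of the 7. Such matches describe letters only.

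Nlrp6, a sensor made mainly by intestinal epithelial cells, was the most abundant sensor. It was at 330.1 and 273 CPM in the Kuiyangling libraries, 284 and 299 CPM in the mesalazine libraries, 435 and 311 CPM in the DSS model libraries and 345 and 579.5 CPM in the control libraries. The control group had the highest mean, followed by the DSS model, Kuiyangling and mesalazine, but the DSS model overlapped the controls and Kuiyangling overlapped the DSS model. The log2 differences of Nlrp6 were -0.62 ± 0.33 (SE) for Kuiyangling against control, -0.67 ± 0.33 for mesalazine against control and -0.31 ± 0.33 for DSS model against control (adjusted p = 0.605, 0.290 and 0.651). Without control replicate 2 and mesalazine replicate 1 the same differences for Nlrp6 were -0.21, -0.23 and 0.09.

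Nlrc4, which with the NAIP proteins recognises flagellin and secretion-system proteins, varied little between animals that had no treatment. It was at 49.3 and 58.5 CPM in Kuiyangling libraries, 34.9 and 53.9 CPM in mesalazine libraries, 50.2 and 50.7 CPM in DSS model libraries and 44.9 and 44.5 CPM in control libraries. The DSS model and control libraries did not overlap, yet the log2 difference was 0.17 ± 0.28 (SE, adjusted p = 0.763), with an interval of -0.44 to 0.79. Aim2, a sensor of double-stranded DNA, was at 75.3 and 82.7 CPM in Kuiyangling libraries, 43.4 and 87.9 CPM in mesalazine libraries, 60.9 and 61.5 CPM in DSS model libraries and 73.4 and 82.0 CPM in control libraries. Aim2 was thus lower in both DSS model libraries than in any Kuiyangling or control library, with log2 differences of -0.34 ± 0.33 against control and 0.37 ± 0.33 for Kuiyangling against DSS model (adjusted p = 0.616 and 0.996). The mesalazine libraries enclosed all the others, Aim2 being 2.03-fold higher in replicate 2 than in replicate 1. In the GENCODE M21 annotation Nlrc4 overlaps CT033749.1, a processed pseudogene, on the same strand. Aim2 overlaps Cadm3 and Pycard overlaps Gm45205, each on the opposite strand, and whether reads were counted by strand is not given in the sources used here.

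Pycard encodes the adaptor ASC, through which NLRP3, NLRP6 and AIM2 reach caspase-1. Its level was 285 and 269 CPM in the Kuiyangling libraries, 619 and 299.7 CPM in the mesalazine libraries, 447 and 485 CPM in the DSS model libraries and 273 and 210.3 CPM in the control libraries. Both DSS model libraries lay above every Kuiyangling and control library, Kuiyangling overlapped the controls, and the mesalazine libraries lay on either side of the DSS model. The mean was 277 ± 11.4 CPM in Kuiyangling, 459 ± 226 CPM in mesalazine, 466 ± 26.9 CPM in DSS model and 242 ± 44.4 CPM in control mucosa (SD, n = 2 each). The log2 difference in Pycard was 0.95 ± 0.36 (SE) for DSS model against control, -0.75 ± 0.36 for Kuiyangling against DSS model and -0.02 ± 0.35 for mesalazine against DSS model, with adjusted p of 0.279, 0.996 and 0.99986. Between the treatments it was -0.73 ± 0.36 for Kuiyangling against mesalazine, with a 95% interval of -1.52 to 0.06 and an adjusted p of 0.999. That difference in Pycard was -0.12 without mesalazine replicate 1, and -0.11 without both libraries that stood apart, when mesalazine against DSS model was -0.63.

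Casp1, the caspase that matures IL-1β and IL-18, stayed between 203 and 269 CPM in all 8 libraries. It was at 242.5 and 220.1 CPM in Kuiyangling libraries, 209 and 242 CPM in mesalazine libraries, 246 and 269 CPM in DSS model libraries and 206 and 203 CPM in control libraries. The controls were the lowest and the DSS model the highest pair, although the log2 difference between them was 0.33 ± 0.25 (SE), with an interval of -0.23 to 0.90 and an adjusted p of 0.520, and was -0.0072 for Casp1 with a correction for transcript length. Casp4, the lipopolysaccharide-binding caspase, was at 43.5 and 41.0 CPM in Kuiyangling libraries, 55.9 and 50.8 CPM in mesalazine libraries, 62.0 and 51.4 CPM in DSS model libraries and 52.3 and 81.9 CPM in control libraries. Both Kuiyangling libraries had less Casp4 than any other library. The log2 difference in Casp4 was -0.42 ± 0.28 for Kuiyangling against DSS model, -0.34 ± 0.28 against mesalazine and -0.67 ± 0.28 against control, with adjusted p of 0.996, 0.999 and 0.457. Without the libraries that stood apart, the Casp4 difference of Kuiyangling against control was -0.32. Casp1 and Casp4 lie next to each other on chromosome 9, and FPKM of Casp1 was 2.34 to 5.26 times that of Casp4 over the 8 libraries.

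Gsdmd, the substrate through which caspase-1 and caspase-4 open the membrane, was at 252.5 and 171 CPM in Kuiyangling libraries, 213 and 187 CPM in mesalazine libraries, 312 and 253 CPM in DSS model libraries and 143 and 312 CPM in control libraries. The control libraries lay near both ends of this range, a 2.18-fold spread between animals of the same group. The DSS model libraries were above every treated library, the closest being a Kuiyangling library at 252.5 CPM beside a DSS model library at 252.7 CPM. The log2 difference in Gsdmd was -0.41 ± 0.38 (SE) for Kuiyangling against DSS model, -0.50 ± 0.38 for mesalazine against DSS model and 0.31 ± 0.38 for DSS model against control (adjusted p = 0.996, 0.99986 and 0.692). Without both libraries that stood apart the same differences in Gsdmd were -0.41, -0.59 and 0.96. For DSS model against control, the Gsdmd difference was 0.98 without control replicate 2 and -0.15 without control replicate 1.

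The gasdermin C genes varied most. Gsdmc4 was at 82.9 and 107.6 CPM in the Kuiyangling libraries, 8.35 and 153 CPM in the mesalazine libraries, 771 and 320.5 CPM in the DSS model libraries and 301 and 656 CPM in the control libraries. Gsdmc2 was at 101.9 and 125.5 CPM in the Kuiyangling libraries, 18.5 and 174 CPM in the mesalazine libraries, 456 and 261 CPM in the DSS model libraries and 224 and 628 CPM in the control libraries. All 4 treated libraries were below all 4 untreated ones for both genes, whereas the DSS model and the controls overlapped. In Gsdmc4 the group means were 95.3 ± 17.5 CPM in Kuiyangling, 80.5 ± 102 CPM in mesalazine, 546 ± 319 CPM in DSS model and 479 ± 251 CPM in control mucosa (SD, n = 2 each).

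The fitted log2 differences of Gsdmc4 were -2.52 ± 0.98 (SE; 5.73-fold lower) for Kuiyangling against DSS model and -2.76 ± 0.99 (6.78-fold lower) for mesalazine against DSS model, with adjusted p of 0.996 and 0.720. Those of Gsdmc2 were -1.66 ± 0.82 and -1.90 ± 0.82, with adjusted p of 0.996 and 0.882. The 95% intervals of Gsdmc4, not adjusted for the number of genes, ran from -4.71 to -0.33 and from -4.97 to -0.55. Against the controls Gsdmc4 was at -2.33 ± 0.98 in Kuiyangling and -2.57 ± 0.99 in mesalazine (adjusted p = 0.450 and 0.193), and at 0.19 ± 0.93 in the DSS model (adjusted p = 0.930). The treatments differed from each other by 0.24 ± 0.93 in Gsdmc4 (Kuiyangling against mesalazine), with a 95% interval of -1.84 to 2.32 and an adjusted p of 0.999, which does not show that they act alike.

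These values rested in part on single libraries. Without mesalazine replicate 1 and control replicate 2 together, Gsdmc4 was at -2.51 for Kuiyangling against DSS model and then passed the test (adjusted p = 0.0313), as it did when only the 4 libraries of that comparison were fitted (-2.52, adjusted p = 0.0451). For mesalazine against DSS model the Gsdmc4 difference was -1.84 (adjusted p = 0.127) without both libraries, -6.03 without mesalazine replicate 2 and -1.99 without DSS model replicate 1. For Kuiyangling against DSS model it was -1.75 without DSS model replicate 1, which has the highest Gsdmc4 of all libraries. With no filter on low counts, Gsdmc4 passed in mesalazine against DSS model (-2.77, adjusted p = 0.0343), and in Kuiyangling and mesalazine against control. For mesalazine against control the Gsdmc4 difference was -5.84 without mesalazine replicate 2, -1.65 without mesalazine replicate 1 and -0.999 without both libraries that stood apart, and for Kuiyangling against control it was -1.67 without both. For mesalazine against DSS model the Gsdmc2 difference was -4.28 without mesalazine replicate 2, -1.05 without mesalazine replicate 1 and -1.04 without both. The DSS model against control difference in Gsdmc2 was -0.25 with all libraries and 0.66 without both.

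**Figure D2:**
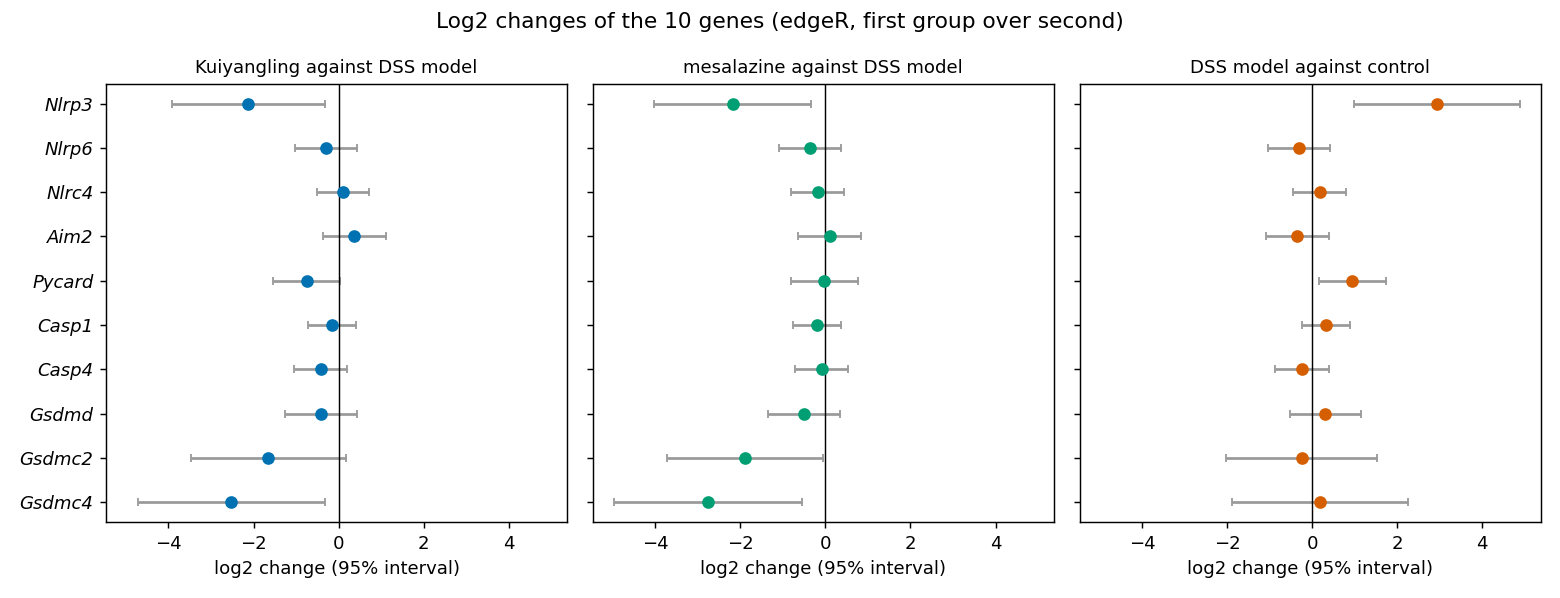
Fitted log2 differences of the 10 genes, in panels for Kuiyangling against DSS model, mesalazine against DSS model and DSS model against control, with 95% intervals that are not adjusted for the number of genes. Right of 0 the first-named group is higher. Nlrp3 at 2.93 is the farthest to the right in DSS model against control, and Gsdmc4 at -2.52 and -2.76 the farthest to the left in the comparisons of Kuiyangling and mesalazine with the DSS model.

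Gsdmc, Gsdmc2, Gsdmc3 and Gsdmc4 stand in a row on the minus strand of chromosome 15 and are alike in sequence. Shared sequence was scored on the longest protein-coding GENCODE M21 transcript of each gene. Of the 50-base stretches of that of Gsdmc2 (2162 bases), 48.5% occur in another gene, and 39.6% are shared with Gsdmc3. For Gsdmc4 the share is 39.0%, with 29.8% shared with Gsdmc2. Counts and FPKM imply a length of 4841 bases for Gsdmc2, so these shares need not hold for the sequence that was counted. How reads that fit several of these genes were counted is not stated in any label or file header, so the split between Gsdmc2 and Gsdmc4 is uncertain. The remaining 6 genes with unique sequence, Nlrp3, Nlrp6, Pycard, Casp1, Casp4 and Gsdmd, had 0% of such stretches elsewhere, and Nlrc4 and Aim2 had 1.13% and 0.789%.

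The summed gasdermin C level is free of how reads were split inside the family only if each shared read was counted once, which is not known. It was 209 and 265 CPM in Kuiyangling libraries, 31.4 and 360.5 CPM in mesalazine libraries, 1347 and 663 CPM in DSS model libraries and 596 and 1480.3 CPM in control libraries. The sum kept the treated libraries below the untreated ones. Gsdmc3 followed with 24.1 and 32.3 CPM in Kuiyangling libraries, 4.53 and 34.0 CPM in mesalazine libraries, 119.7 and 81.7 CPM in DSS model libraries and 70.3 and 195.7 CPM in control libraries. The first gene of the row, Gsdmc, was near 0, at 0 and 0 counts in Kuiyangling, 0 and 1 in mesalazine, 1 and 3 in DSS model and 5 and 5 in control libraries. Per length, Gsdmc4 stood at 1.49 and 1.57 times Gsdmc2 in Kuiyangling, 0.827 and 1.61 times in mesalazine, 3.10 and 2.25 times in DSS model and 2.46 and 1.91 times in control libraries.

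The promoter of Gsdmc3 is shown because it is the family's window in the RefSeq table (GRCm38.p6, chr15:63878509-63878808, - strand, written in the direction of transcription, the motif match in capitals).
Gsdmc3: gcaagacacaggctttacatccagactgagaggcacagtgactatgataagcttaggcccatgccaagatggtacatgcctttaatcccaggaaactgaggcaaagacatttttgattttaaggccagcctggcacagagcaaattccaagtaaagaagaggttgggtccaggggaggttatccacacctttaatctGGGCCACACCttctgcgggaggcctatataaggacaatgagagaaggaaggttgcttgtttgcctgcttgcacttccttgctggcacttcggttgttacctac
The match is to the kappa-B pattern, 53 bases before the start; the window held no match to the STAT6 or interferon-response patterns.

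**Figure D3:**
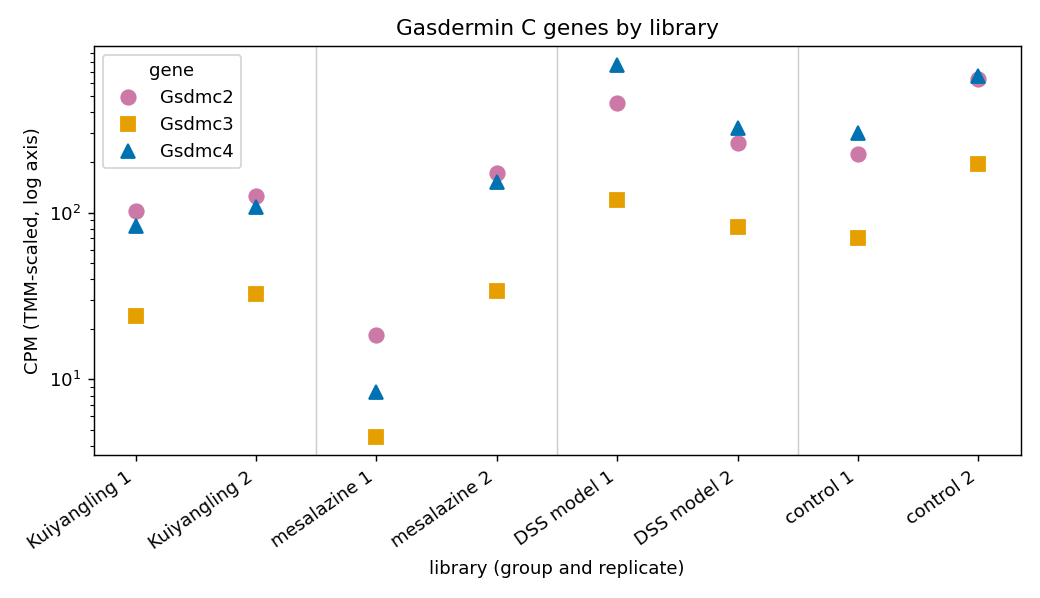
Gsdmc2, Gsdmc3 and Gsdmc4 in every library, in CPM on a log axis, with groups from left to right as Kuiyangling, mesalazine, DSS model and control. All 3 genes are lower in the 4 treated libraries than in the 4 untreated ones, and mesalazine replicate 1 is the lowest for each, at 18.5 CPM for Gsdmc2, 4.53 CPM for Gsdmc3 and 8.35 CPM for Gsdmc4.

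Over the 8 libraries, log2 levels of Gsdmc2 and Gsdmc4 had a Pearson r of 0.991, Gsdmc2 and Gsdmc3 of 0.992 and Gsdmc3 and Gsdmc4 of 0.986; the points share depth, group and, for these genes, reads. Outside the family, the gene most like Gsdmc4 among 10201 genes of at least 5 CPM was Tfe3, with an r of 0.973. The genes most like Nlrp3 were Zdhhc13 (r = 0.956), Zc3h15 (0.948) and Dffa (0.931), those most like Nlrp6 were Denn2b (0.981), Tjap1 (0.978) and Tsc22d4 (0.976), and those most like Casp4 were Map3k14 (0.985), Mppe1 (0.960) and Smg9 (0.959). Among the 10 genes themselves, Nlrp6 and Casp4 had an r of 0.864, and Aim2 and Pycard one of -0.904. Each is a description of 8 libraries from 4 groups.

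Markers of type 2 immunity and of tuft cells were measured beside the gasdermin C genes. Of 12 listed, 11 are in the table, and they summed to 599 and 488 CPM in Kuiyangling libraries, 1571 and 471 CPM in mesalazine libraries, 1310.4 and 1177 CPM in DSS model libraries and 431 and 695 CPM in control libraries. Most of that sum was Retnlb, a goblet-cell antimicrobial protein, at 412 and 314 CPM in Kuiyangling, 1406 and 298 CPM in mesalazine, 1027 and 946 CPM in DSS model and 246 and 453 CPM in control libraries. Il4ra, the receptor chain for IL-4 and IL-13, was at 80.8 and 70.0 CPM in Kuiyangling, 72.9 and 67.5 CPM in mesalazine, 164 and 116 CPM in DSS model and 61.7 and 79.4 CPM in control libraries. Il4 and Il5 were at 0 in most libraries. Il33 and Stat6 of the same list did not follow Retnlb and Il4ra. Il33 was at 3.16 and 2.44 CPM in Kuiyangling, 1.98 and 2.33 CPM in mesalazine, 2.52 and 3.05 CPM in DSS model and 0.0991 and 0 CPM in control libraries. Stat6 stayed between 82.4 and 103 CPM in all libraries. The tuft-cell genes had another order. Dclk1, a tuft-cell kinase, was at 3.84 and 3.43 CPM in Kuiyangling, 3.54 and 6.13 CPM in mesalazine, 6.60 and 5.44 CPM in DSS model and 15.5 and 26.9 CPM in control libraries. Trpm5, their taste channel, was at 2.60 and 2.75 CPM in Kuiyangling, 4.03 and 3.44 CPM in mesalazine, 5.79 and 6.63 CPM in DSS model and 13.9 and 32.4 CPM in control libraries. Both control libraries were above all 6 DSS-exposed libraries for Dclk1 and Trpm5, and also for Pou2f3, the tuft-cell transcription factor. Hoxb13, a transcription factor of the distal colon that was added after its values were seen, was at 5.88 and 23.2 CPM in Kuiyangling, 0.212 and 0.642 CPM in mesalazine, 12.9 and 2.98 CPM in DSS model and 19.9 and 175 CPM in control libraries. Goblet-cell markers summed to 14938 and 10433 CPM in Kuiyangling, 17587 and 8677 CPM in mesalazine, 20286 and 16681 CPM in DSS model and 19543 and 25316 CPM in control libraries. The part of these cells, and of the site of sampling along the colon, in the gasdermin C levels was not tested.

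Taken as a list, the 10 genes had a median log2 difference of 0.18 in DSS model against control, where all genes tested had -0.04. In Kuiyangling against DSS model the median was -0.42 against 0.00 for all genes, with 8 of 10 estimates below 0, and in mesalazine against DSS model it was -0.27 against 0.04, with 9 of 10 below 0. In Kuiyangling against mesalazine it was 0.07 against 0.00. The groups did not overlap for 5 of the 10 genes in DSS model against control, where they did not overlap for 53.4% of all genes tested. In Kuiyangling against DSS model they did not overlap for 8 of the 10, where all genes gave 43.0%; 7 of the 8 were lower, where 21.1% of all genes were lower. In mesalazine against DSS model they did not overlap for 6, all lower, where all genes gave 27.7%, and 13.8% lower. With 2 animals a group, groups without overlap are common among all genes. The 10 genes were chosen with earlier results of these data known, so the contrasts with all genes are descriptions and test nothing. Nlrp3 also passed the filter on low counts only through the DSS model libraries, and Gsdmc2 and Gsdmc4 share sequence.

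Around these 10 genes, 57 other gene symbols of the pathway were listed, also with earlier results of these data known. Dfna5 and Dfnb59 among them are older names of Gsdme and Pjvk, which are listed too. Of the symbols, 54 were found among the counted genes and 49 were tested. In DSS model against control 1 of the 49 rose and 0 fell, and in the other 5 comparisons 0 of 49 passed the test (edgeR). At an unadjusted p under 0.05, edgeR counted 8 of the 49 in DSS model against control (14.8% of all genes), 8 in Kuiyangling against DSS model (3.56%) and 15 in mesalazine against DSS model (5.49%). It counted 1 in Kuiyangling against mesalazine (1.90%), 11 in Kuiyangling against control (10.3%) and 15 in mesalazine against control (20.0%). The gene that rose was Il1b, the precursor of IL-1β and a substrate of caspase-1, at 3.34 and 5.71 CPM in Kuiyangling, 7.50 and 5.08 CPM in mesalazine, 13.7 and 36.1 CPM in DSS model and 0.595 and 1.17 CPM in control libraries. All DSS-exposed libraries were above the controls for Il1b, and the DSS model libraries were above the treated ones. Its log2 difference was 4.83 ± 0.61 (SE, adjusted p = 0.0168) in DSS model against control, -2.45 ± 0.52 in Kuiyangling against DSS model (adjusted p = 0.996) and -1.99 ± 0.51 in mesalazine against DSS model (adjusted p = 0.523). Without DSS model replicate 2 the Il1b differences from the DSS model were -1.60 in Kuiyangling and -1.13 in mesalazine. The call of Il1b was lost without DSS model replicate 2 (3.97, adjusted p = 0.0658), without control replicate 2 (5.37, adjusted p = 0.108), and with limma on log2(FPKM + 1) of all genes (3.33, adjusted p = 0.129). DESeq2 called 3 of the listed genes in DSS model against control, Ripk3, Il1b and Il18, all higher, and the same 3 were called by edgeR without both libraries that stood apart. DESeq2 also called 1 listed gene in Kuiyangling against DSS model, Il1b, lower (adjusted p = 0.00525), and 5 in mesalazine against DSS model, Zbp1, Ifi204, Mlkl, Il1b and Gsdme, of which Gsdme alone was higher. With no filter on low counts edgeR called Il1b lower too, in Kuiyangling against DSS model (adjusted p = 0.0152) and mesalazine against DSS model (adjusted p = 0.0209). Of all genes DESeq2 called 435 in DSS model against control, 13 in Kuiyangling against DSS model and 91 in mesalazine against DSS model. Against the controls the count of listed genes called depended on the setting. In Kuiyangling against control, 0 became 2 with DESeq2 (Il1b, higher, and Il18bp, lower) and 8 with no filter on low counts. Of all genes, 349 were called there with DESeq2 and 451 with no filter, and 32 as analysed. In mesalazine against control, 0 became 9 with DESeq2, 11 with no filter, 7 with only the 4 libraries compared and 1 with the replicate block (Il1b). Of all genes, 982 were called there with DESeq2, 1090 with no filter and 315 with only the 4 libraries, and 90 as analysed.

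Il18, the other cytokine that caspase-1 matures, was at 59.8 and 60.2 CPM in Kuiyangling, 123 and 51.5 CPM in mesalazine, 187 and 106 CPM in DSS model and 36.9 and 45.8 CPM in control libraries. Its log2 difference was 1.83 ± 0.43 (SE) in DSS model against control and -1.29 ± 0.42 in Kuiyangling against DSS model, with adjusted p of 0.121 and 0.996. Ripk3, a kinase of necroptosis, was at 72.4 and 59.4 CPM in Kuiyangling, 64.0 and 45.5 CPM in mesalazine, 113 and 102 CPM in DSS model and 34.6 and 44.0 CPM in control libraries. For Ripk3 the groups did not overlap except Kuiyangling and mesalazine, with the DSS model highest and the controls lowest, and the log2 difference of DSS model against control was 1.45 ± 0.29 (adjusted p = 0.0910).

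No gene of the other roles passed the test as analysed. With no filter on low counts edgeR called, besides Il1b, Ripk3 and Il18 in DSS model against control, and Zbp1, Ifi204, Gsdmc3 and Gsdme in mesalazine against DSS model. The 13 tested sensors had a median log2 difference of -0.31 in DSS model against control, -0.26 in Kuiyangling against DSS model and -0.40 in mesalazine against DSS model. Naip6, one of the NAIP partners of NLRC4, was at -0.81 ± 0.45 (SE) in DSS model against control, and Mefv, which encodes pyrin, at 1.92 ± 1.16. The 22 factors that act upstream had medians of -0.08, -0.23 and -0.36 in the same comparisons; the transcription factor Irf8 was at 0.95 ± 0.29 in DSS model against control (adjusted p = 0.201) and the ATP-gated channel P2rx7 at -1.12 ± 0.38 (adjusted p = 0.244). The 3 genes of Il1b, Il18 and the IL-18 inhibitor Il18bp had medians of 1.83, -1.29 and -0.97. The 7 other caspases and death kinases had medians of 0.32, -0.41 and -0.74. Of 10 further gasdermin and membrane-rupture symbols 4 were tested, with medians of -0.13, 0.09 and 0.33. Gsdme was the highest of the 4 in mesalazine against DSS model, at 1.58. Its means were 26.4 CPM in Kuiyangling, 51.6 CPM in mesalazine, 17.2 CPM in DSS model and 17.0 CPM in control libraries (n = 2 each). Gsdmc3 was at -1.84 ± 0.75 in Kuiyangling against DSS model and -2.38 ± 0.77 in mesalazine against DSS model (adjusted p = 0.996 and 0.642); it passed in Kuiyangling against DSS model with only the 4 libraries compared and without both libraries that stood apart (adjusted p = 0.0314 and 0.0245). Ninj1, whose protein ruptures the membrane after the pores form, was at -0.06 ± 0.37 and 0.60 ± 0.37.

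**Figure D4:**
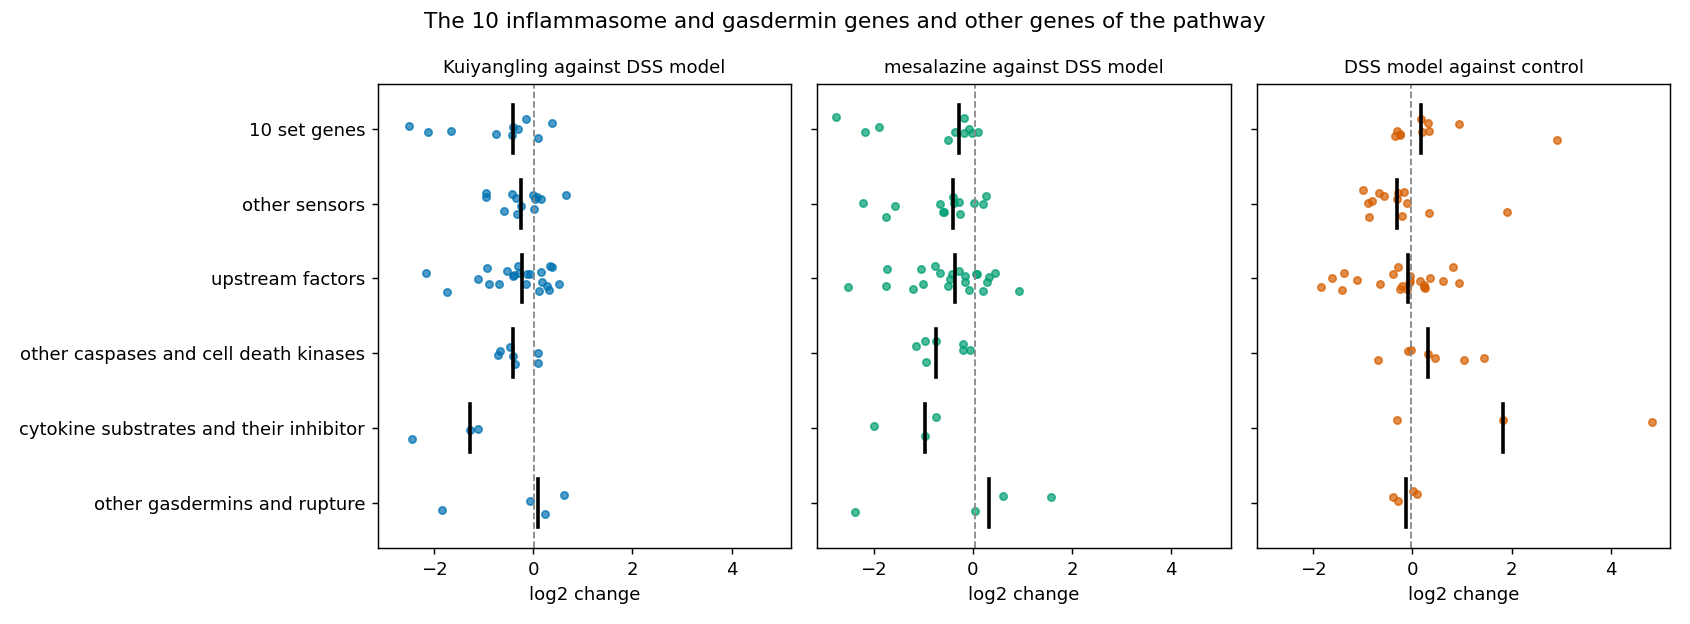
Fitted log2 differences of the 10 genes and of each list of other pathway genes in Kuiyangling against DSS model, mesalazine against DSS model and DSS model against control, 1 point a gene; a bar marks each list's median and the dashed line the median of all genes tested. Il1b at 4.83 in DSS model against control is the point that passed the test.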

How the data were processed

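Messenger RNA of 8 colonic mucosa samples was measured, 2 animals in each of 4 groups that the sample titles and treatments name. A count table and an FPKM table of the whole series were used. The authors deposited raw counts per gene for the 8 libraries, and FPKM values that equal those counts over gene length and the library total. Reads were trimmed with Trimmomatic and aligned with HISAT2, per the submitters' processing notes; the genome build and the counting of multi-mapped reads are not given in the sources used here. The kit was stranded and samples had an RNA integrity number of at least 7, per the labels' protocols.

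Counts were tested with edgeR 4.0.16 (R 4.3.3; filterByExpr by group, TMM, quasi-likelihood test on 1 mean per group over all 8 libraries) on 13381 of 17353 genes, with Benjamini-Hochberg adjustment and a threshold of 0.05. CPM use TMM-scaled library totals. The series gives 2 animals a group, so p-values measure the spread between animals. The script was checked on simulated data. Alternatives were DESeq2 1.42, limma 3.58.1 on log2(FPKM + 1) and log2(FPKM + 0.1), RLE scaling, no filter on low counts, the 4 libraries compared, each library left out, the replicate number as a block, and a length correction. Leaving out both libraries that stood apart was added after the data were seen. The genes and lists were chosen with earlier results of these data known. All 10 genes were described; of each other list, called genes and up to 3 with the smallest p in DSS model against control could be named. Intervals on counts cover counting error only. One mesalazine column carries a misspelt name that matches the title of mesalazine replicate 2.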

Additional observations from a re-analysis of the deposited data

How the results depend on the processing

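No gene of the 10 passed the test as analysed, and with 2 animals a group a p above the threshold does not show that values did not differ; Nlrp3 is limited by its counts. Of the 10, the number called became 1 in Kuiyangling against DSS model with only the 4 libraries compared, and 1 without both libraries that stood apart (Gsdmc4). With no filter on low counts it became 1 in mesalazine against DSS model, 1 in Kuiyangling against control (both Gsdmc4) and 2 in mesalazine against control (Gsdmc2 and Gsdmc4). Leaving out each library in turn it ranged from 0 to 4 in mesalazine against control. In the other settings, DESeq2, limma, RLE scaling, the replicate block and the length correction, it stayed at 0 in all 6 comparisons.

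The count of all genes called moved more. In DSS model against control, 33 genes as analysed became 435 with DESeq2, 487 with no filter, 50 with the replicate block, 19 with limma on log2(FPKM + 1), 2 with that and no filter, 194 without both libraries, and 1 to 159 leaving out each library in turn. In Kuiyangling against DSS model, 0 became 13 with DESeq2, 11 with no filter, 21 with only the 4 libraries and 28 without both. In mesalazine against DSS model, 0 became 91 with DESeq2, 104 with no filter and 81 without both. In Kuiyangling against mesalazine, 0 became 3 with no filter. In Kuiyangling against control, 32 became 349, 451 and 85 under DESeq2, no filter and without both, 65 with the replicate block, 54 with the block and the length correction, 7 and 1 with limma, 19 with only the 4 libraries, and 1 to 171 leaving out each library in turn. In mesalazine against control, 90 became 982, 1090 and 23, 11, 57 and 4 with limma, 315 with only the 4 libraries, 37 with the length correction, and 1 to 2717 leaving out each library in turn.

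No label says that the replicate numbers pair the animals. Deviations of equally numbered libraries correlated at -0.311 to 0.162 over the 6 pairs of groups, which cannot decide whether a weak pairing exists. The block changed no call among the 10 genes. With the length correction DSS model against control gave Casp1 -0.0072, Kuiyangling against DSS model gave Casp1 0.026, Kuiyangling against mesalazine gave Nlrp3 -0.0092 and Nlrp6 -0.051 and mesalazine against control gave Nlrc4 0.094, Aim2 0.0059 and Casp1 -0.20. With the replicate block DSS model against control gave Gsdmc2 0.13. With the replicate block and the length correction DSS model against control gave Casp1 -0.0063 and Gsdmc2 0.25, Kuiyangling against DSS model gave Casp1 0.025, Kuiyangling against mesalazine gave Nlrp6 -0.052 and mesalazine against control gave Nlrc4 0.080 and Casp1 -0.22. Without both libraries that stood apart DSS model against control gave Nlrp6 0.093, Casp4 0.095 and Gsdmc2 0.66, mesalazine against DSS model gave Nlrc4 0.10, Kuiyangling against mesalazine gave Nlrp3 -0.55, Aim2 -0.15, Casp1 -0.063, Gsdmc2 -0.61 and Gsdmc4 -0.67, Kuiyangling against control gave Gsdmd 0.55 and mesalazine against control gave Nlrc4 0.25, Aim2 0.24 and Gsdmd 0.37. With only the 4 libraries compared mesalazine against control gave Nlrc4 0.00034. With limma on FPKM it was Gsdmc4 -0.0025 or -0.0027 in DSS model against control, Aim2 -0.0010 or -0.018 in mesalazine against DSS model, Aim2 -0.00017 in Kuiyangling against control and Casp1 -0.057 in mesalazine against control. Leaving out each library in turn, estimates turned sign in these ranges: in DSS model against control, Nlrp6 -0.64 to 0.11, Casp4 -0.53 to 0.12, Gsdmd -0.15 to 0.98, Gsdmc2 -0.81 to 0.68 and Gsdmc4 -0.58 to 0.86. In Kuiyangling against DSS model, Nlrc4 -0.035 to 0.18. In mesalazine against DSS model, Nlrc4 -0.54 to 0.087, Aim2 -0.50 to 0.51, Pycard -0.65 to 0.40 and Casp4 -0.22 to 0.052. In Kuiyangling against mesalazine, Nlrp3 -0.57 to 1.37, Nlrp6 -0.12 to 0.18, Nlrc4 -0.0085 to 0.63, Aim2 -0.16 to 0.87, Casp1 -0.073 to 0.15, Gsdmd -0.25 to 0.34, Gsdmc2 -0.62 to 2.62 and Gsdmc4 -0.69 to 3.51. In Kuiyangling against control, Aim2 -0.062 to 0.11 and Gsdmd -0.56 to 0.57. In mesalazine against control, Nlrp3 -0.57 to 1.49, Nlrc4 -0.36 to 0.27, Aim2 -0.84 to 0.18, Casp4 -0.64 to 0.027 and Gsdmd -0.66 to 0.49. The cause was not tested.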

Other observations

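The guanylate-binding proteins, which open bacteria in the cytosol to caspase-4 and AIM2, are singled out here after their values were seen. Gbp2 was at 31.4 and 15.2 CPM in Kuiyangling libraries, 9.27 and 27.1 CPM in mesalazine libraries, 60.8 and 149 CPM in DSS model libraries and 30.8 and 514 CPM in control libraries. Gbp5 was at 1.24 and 1.19 CPM in Kuiyangling, 0.708 and 1.69 CPM in mesalazine, 1.82 and 6.37 CPM in DSS model and 0.941 and 28.7 CPM in control libraries. Gbp3 and Gbp7 had their highest level in control replicate 2 as well, at 179.7 and 110.1 CPM, with 87.5 and 28.9 CPM in control replicate 1. None of the 4 genes passed the test in any comparison as analysed (edgeR), the log2 difference of Gbp2 being -3.55 ± 1.07 (SE) in Kuiyangling against control and -3.90 ± 1.09 in mesalazine against control (adjusted p = 0.243 and 0.109). With no filter on low counts all 4 passed in Kuiyangling against control and in mesalazine against control, where 451 and 1090 of all genes passed. In mesalazine against control, Gbp2, Gbp3 and Gbp7 also passed with DESeq2 and with only the 4 libraries compared, Gbp3 and Gbp7 without mesalazine replicate 2, and Gbp2, Gbp5 and Gbp7 without control replicate 1; in Kuiyangling against control, Gbp2 and Gbp5 passed without control replicate 1. Without both libraries that stood apart none of the 4 passed in any comparison, and the log2 difference of Gbp2 was -0.42 in Kuiyangling against control and -0.20 in mesalazine against control. Control replicate 2 is one of the libraries that stood apart, and its B-cell markers summed to 49.6 CPM.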
